A study of Homo sapiens with 2 samples.

Results

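The TGF-beta and SMAD pathway genes described here were 10 genes chosen by name, namely the ligands TGFB1 and TGFB2, the receptors TGFBR1 and TGFBR2, the signal transducers SMAD2, SMAD3 and SMAD4, the inhibitory SMAD6 and SMAD7, and the SMAD corepressor SKIL. They were examined among 20037 protein-coding genes. To learn where RUNX2 and MTA1 sit at these genes, every peak inside a gene or within 50 kb of it was taken from each list, which gave 123 of 61700 RUNX2 peaks and 72 of 42683 MTA1 peaks. The study profiled both proteins by CUT&Tag, in which a transposase directed by an antibody cuts and tags nearby DNA for sequencing. The cells were MDA-MB-231, an established human line of triple-negative breast cancer, grown in DMEM with serum, and the labels name no treatment. There was 1 library with an antibody against RUNX2 and 1 with an antibody against MTA1, so no value has a replicate. No library without a specific antibody was analysed here, and the number of reads is unknown. Expression was not measured in these samples, so the cell line could not be checked against its marker genes.

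TGF-beta ligands bind the type II receptor TGFBR2, which activates the type I receptor TGFBR1. TGFBR1 then phosphorylates SMAD2 and SMAD3, and these join SMAD4 and enter the nucleus to act on target genes, while SMAD6 and SMAD7 block the receptors and SKIL represses SMAD-driven transcription. RUNX2 is a DNA-binding factor of bone development that can partner with receptor-activated SMADs, MTA1 is a subunit of the NuRD remodelling and deacetylase complex, and TGF-beta signalling is known to promote invasion and bone metastasis in advanced breast cancer.

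The sequences printed here are from the bases just before annotated starts of transcription. Most peaks lay elsewhere, 102 of the 123 RUNX2 and 52 of the 72 MTA1 peaks farther than 3 kb from any start of the gene, and the sequence under those, the highest RUNX2 peaks of TGFB2, SMAD2 and SMAD3 among them, was not analysed here. Each sequence is the 250 bases before a start, written 5′ to 3′ along the strand of the gene, from the RefSeq promoter table of GRCh38.p14. All 10 genes were found in that table, with 25 starts in total. Starts are numbered along the direction of transcription, from the outermost. Capitals mark 4 short motifs searched on both strands: the RUNX core TGTGGT, its variant TGCGGT, the SMAD element CAGAC, and the AP-1 site TGANTCA. The start of SMAD3 lying 33.1 kb inside the gene is shown because a strong RUNX2 peak covered 244 of the 250 bases and both copies of TGTGGT. The next SMAD3 start, 60.1 kb inside, is shown for its peaks of both proteins, SMAD4 for a RUNX core under a peak pair, SKIL for the widest peak of the 10 genes, and a pair of SMAD7 starts because peaks lay on the inner one and not on the outer one.
SMAD3, the second start (chr15:67098429-67098678, plus strand): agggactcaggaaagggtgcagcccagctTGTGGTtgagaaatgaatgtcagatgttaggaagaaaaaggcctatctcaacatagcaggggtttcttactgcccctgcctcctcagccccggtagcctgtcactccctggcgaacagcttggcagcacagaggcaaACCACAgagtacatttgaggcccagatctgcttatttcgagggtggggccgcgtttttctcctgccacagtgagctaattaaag
SMAD3, the third start (chr15:67125492-67125741, plus strand): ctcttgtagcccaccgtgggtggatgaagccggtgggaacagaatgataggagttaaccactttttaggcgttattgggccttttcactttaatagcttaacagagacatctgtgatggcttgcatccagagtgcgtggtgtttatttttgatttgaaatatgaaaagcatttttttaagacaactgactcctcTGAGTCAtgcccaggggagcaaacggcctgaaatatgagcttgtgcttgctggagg
SMAD4 start (chr18:51029963-51030212, plus strand): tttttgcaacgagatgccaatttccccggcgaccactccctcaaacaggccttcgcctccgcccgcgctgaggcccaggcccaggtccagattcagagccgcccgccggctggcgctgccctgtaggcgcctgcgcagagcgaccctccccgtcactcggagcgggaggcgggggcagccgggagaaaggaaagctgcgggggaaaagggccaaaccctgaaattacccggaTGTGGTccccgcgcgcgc
SMAD7 outermost start (chr18:48950966-48951215, minus strand): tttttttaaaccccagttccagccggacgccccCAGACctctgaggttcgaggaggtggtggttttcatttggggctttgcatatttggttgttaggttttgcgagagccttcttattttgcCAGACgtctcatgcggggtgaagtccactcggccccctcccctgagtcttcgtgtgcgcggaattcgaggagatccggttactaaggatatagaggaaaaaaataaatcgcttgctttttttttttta
SMAD7, the third start (chr18:48942808-48943057, minus strand): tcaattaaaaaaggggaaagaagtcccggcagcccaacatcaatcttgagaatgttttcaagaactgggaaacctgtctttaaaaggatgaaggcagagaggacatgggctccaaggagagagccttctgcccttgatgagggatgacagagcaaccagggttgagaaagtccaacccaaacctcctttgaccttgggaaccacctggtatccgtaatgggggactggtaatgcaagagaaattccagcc
SKIL start (chr3:170357465-170357714, plus strand): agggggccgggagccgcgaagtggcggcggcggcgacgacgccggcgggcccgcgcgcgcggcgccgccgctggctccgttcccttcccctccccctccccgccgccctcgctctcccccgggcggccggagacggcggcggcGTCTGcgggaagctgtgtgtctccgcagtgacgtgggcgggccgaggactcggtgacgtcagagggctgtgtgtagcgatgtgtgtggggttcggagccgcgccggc

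Peaks were present at every one of the 10 genes in both libraries, but this was common, since 90.8% of all protein-coding genes had a RUNX2 peak inside or within 50 kb and 86.6% had an MTA1 peak. The number of peaks per gene ranged from 4 at SMAD4 to 23 at SMAD3 for RUNX2, and from 2 at TGFBR1, SMAD2 and SMAD4 to 17 at SMAD3 for MTA1. The median was 12 RUNX2 peaks, against 5 over all protein-coding genes, and 6.5 MTA1 peaks, against 4. The 10 genes are long, with a median span of 67.7 kb against 24.1 kb. Per 100 kb of gene and flanks, the medians were 7.20 RUNX2 peaks against 3.55, and 3.65 MTA1 peaks against 2.58. TGFB1, SMAD7 and SMAD3 had more RUNX2 peaks per 100 kb than 99.4%, 99.1% and 94.9% of protein-coding genes, while SMAD4 had more than 37.8%. The windows also hold neighbours, and the gene itself was the nearest protein-coding gene for 94 of the 123 RUNX2 and 59 of the 72 MTA1 peaks. At TGFB1 this held for only 4 of 17 RUNX2 peaks, beside 14 of 17 at SMAD7 and 22 of 23 at SMAD3.

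**Figure D1:**
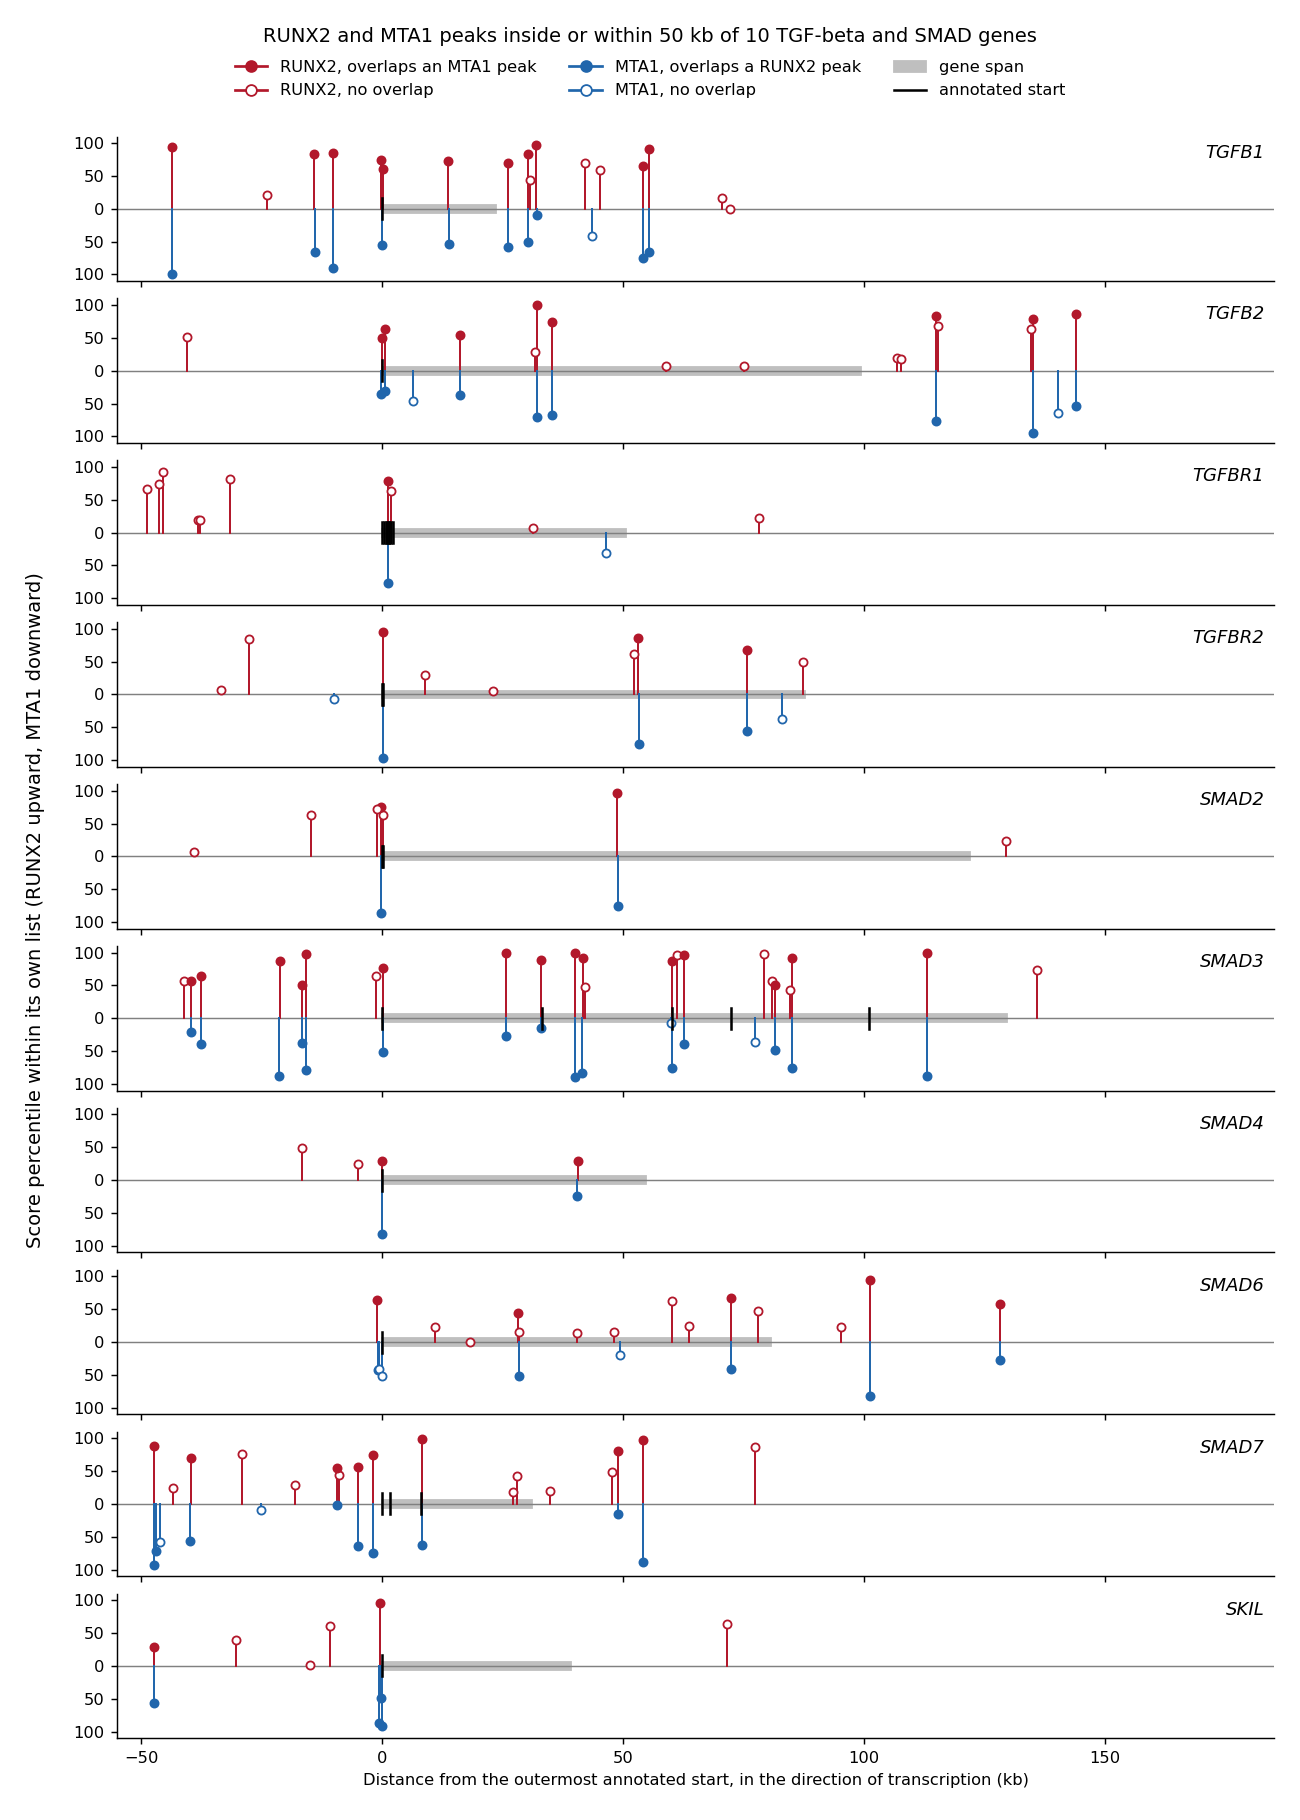
Each panel is a gene drawn along the direction of transcription, with distance from the outermost annotated start in kb on the horizontal axis, the gene as a grey bar and annotated starts as black ticks. Each stem is a peak, RUNX2 upward and MTA1 downward, its height is the score percentile within its own list, and filled heads overlap a peak of the other protein. Of the 23 RUNX2 peaks of SMAD3, 15 stand inside the gene, 7 in its upstream flank and 1 in its downstream flank, and SMAD4 has 4.

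Scores were compared only by rank within a list, as the percentile, which is the percentage of peaks of the same list with a lower score. The RUNX2 peaks at the 10 genes had a median percentile of 63.5, with a 95% interval from order statistics of 56.6 to 68.0, against 51.1 for all RUNX2 peaks within 50 kb of a protein-coding gene. For MTA1 the median was 55.9 (49.0 to 66.1), against 51.5. At or above percentile 95 lay 13 of the 123 RUNX2 peaks (10.6%), compared with 5.13% of all RUNX2 peaks within 50 kb of a protein-coding gene, and 7 of these 13 were at SMAD3. Without SMAD3, 6 of 100 RUNX2 peaks (6%) were that high. Such a peak was found at 6 of the 10 genes, against 23.5% of all protein-coding genes, but the longer windows of the 10 genes give more chances of one. The peak counted for TGFB1 lay in CCDC97. Only 2 of the 72 MTA1 peaks (2.78%) reached percentile 95, at TGFBR2 and near TGFB1, so that 2 of the 10 genes had one, against 24.8% of all protein-coding genes.

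**Figure D2:**
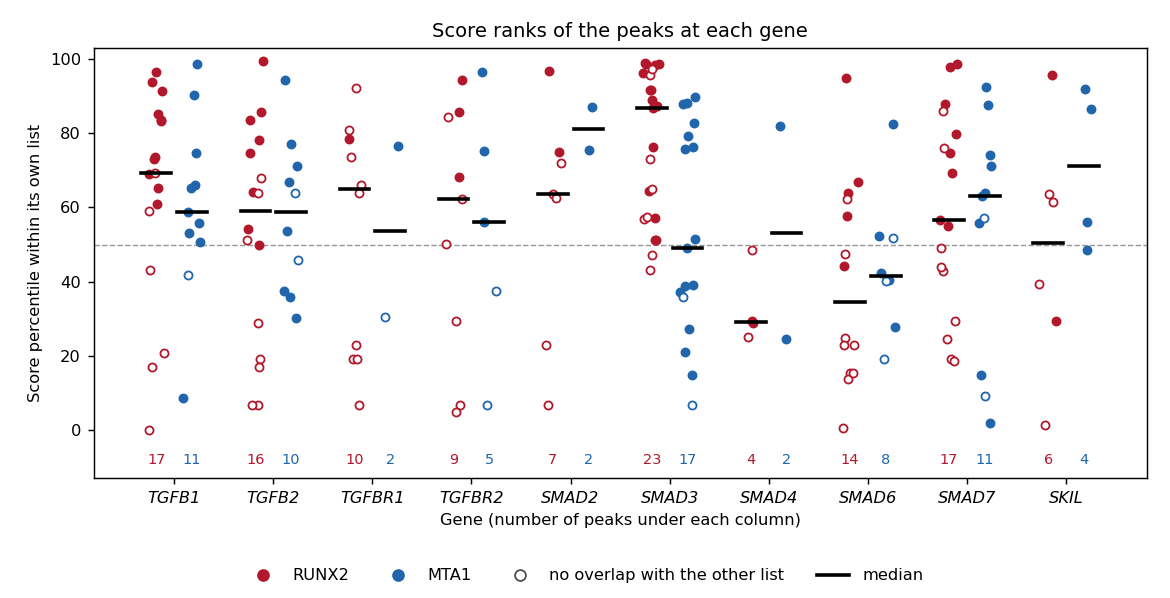
Points are the peaks of each gene, with the score percentile within its own list on the vertical axis, RUNX2 in red and MTA1 in blue, and the number of peaks under each column. Open points do not overlap a peak of the other list, black bars are medians, and the dashed line is percentile 50. The median of SMAD3 was 86.9 for RUNX2 and 49.0 for MTA1.

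Overlap between the proteins was uneven in the 2 directions. Of the RUNX2 peaks, 57 of 123 (46.3%, exact 95% interval 37.3% to 55.6%) shared at least 1 bp with an MTA1 peak, close to the 45.4% of the whole list. Of the MTA1 peaks, 59 of 72 (81.9%, 71.1% to 90.0%) overlapped a RUNX2 peak, against 65.5% of the whole list. These intervals cover counting error only, and neighbouring peaks at 1 gene are not independent. The RUNX2 peaks that overlapped ranked higher, with a median percentile of 78.5 against 43.1 for the 66 others, and only 1 of the 57 had the narrowest width of the list, 99 bp, compared with 25 of the 66. The whole list showed the same order, with medians of 72.4 and 29.3, and 8.67% of its overlapping peaks and 50.8% of the others had that width. In the pairs, the RUNX2 percentile was above that of its MTA1 partner in 45 of 57 (78.9%), against 56.8% of the 27997 pairs of the whole list. Without SMAD3 this was 31 of 42 (73.8%).

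At the starts, both proteins were close to each of the 10 genes. A RUNX2 peak lay within 1 kb of an annotated start of 10 of 10 genes, against 49.8% of protein-coding genes, and so did an MTA1 peak, against 51.2%, with both at 44.3% of protein-coding genes. Several starts per gene give more chances of a peak. For the outermost start alone, the count was 8 of 10 in both libraries, against 49.6% and 51.6%, and the genes without a peak there were SMAD7 and TGFBR1. The strongest start peak of each gene had a median percentile of 76.7 for RUNX2 and 76.5 for MTA1, beside 71.5 and 75.4 over all protein-coding genes with a start peak. Near a start, 14 of 17 RUNX2 peaks overlapped an MTA1 peak, and farther away 43 of 106 did. These are 82.4% and 40.6%, beside 75.2% near any annotated start and 39.0% farther away in the whole RUNX2 list. For MTA1 the counts were 15 of 18 (83.3%) and 44 of 54 (81.5%), beside 76.6% and 61.8%. The splits differ, since only their own starts counted for the 10 genes and those of any gene for the whole lists. By the latter rule 18.7% of the 123 RUNX2 and 30.6% of the 72 MTA1 peaks were near a start. The farther peaks of the 10 genes thus include some near starts of other genes, which limits these comparisons.

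**Figure D3:**
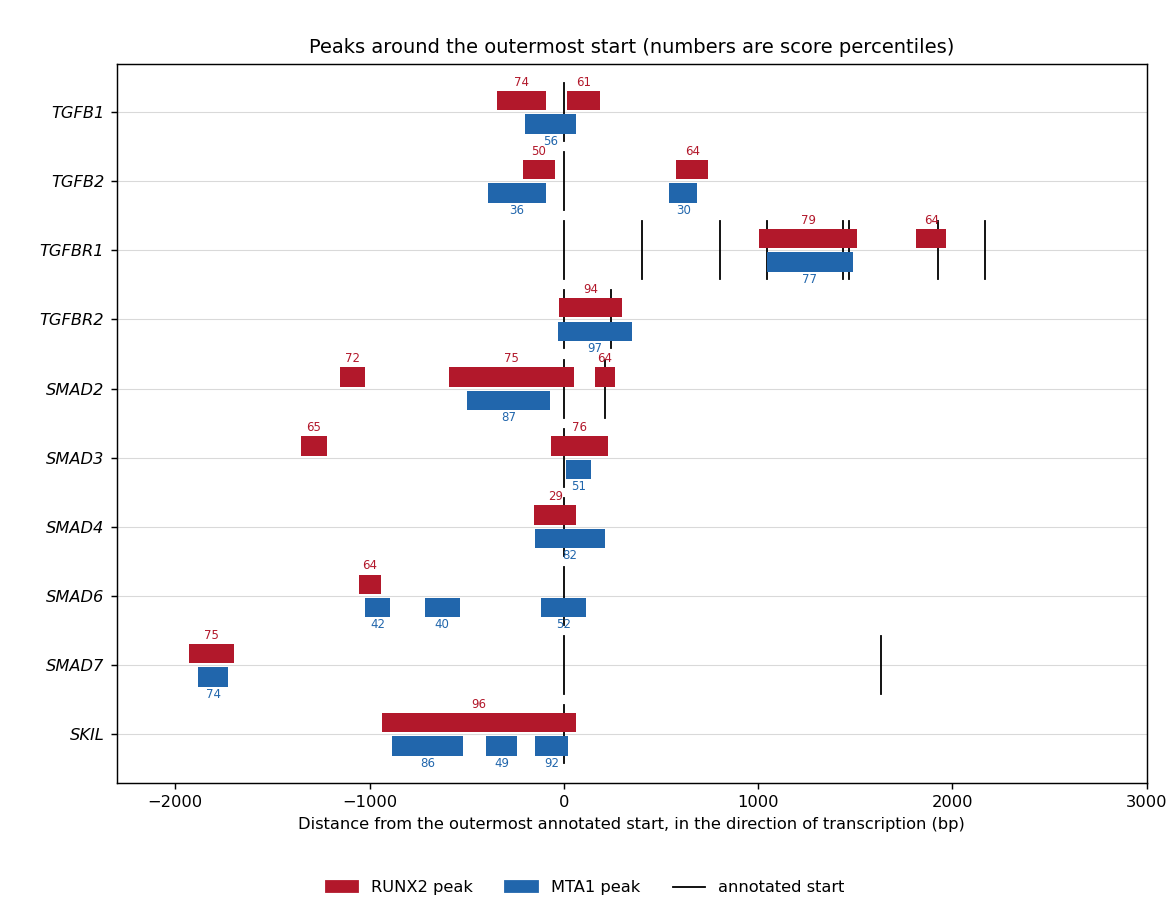
Bars are peaks drawn to their width around the outermost annotated start of each gene, RUNX2 in red above and MTA1 in blue below, with distance in bp along the direction of transcription. The numbers are score percentiles and black lines are annotated starts. SMAD7 had no peak at its first pair of starts, and at SMAD6 only MTA1 lay on the start.

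TGFB1, the ligand most widely produced, had 17 RUNX2 and 11 MTA1 peaks in its window, of which 2 and 2 touched the gene. At its start the RUNX2 peaks were at chromosome 19, 41354015 to 41354267 (score 11.6, percentile 73.6) and 41353735 to 41353903 (score 8.22, percentile 60.8). A single MTA1 peak, 41353862 to 41354119 (score 8.44, percentile 55.8), overlapped both of them. These and all following coordinates are those of the deposited lists, taken as GRCh38, because the peaks gather at GRCh38 starts although the labels name hg19. The stronger peaks of the window were not at TGFB1: CCDC97, HNRNPUL1, TMEM91 with B9D2, or EXOSC5 held the 3 highest of each list. For RUNX2 these were in CCDC97 (41321713 to 41322306, percentile 96.4), in EXOSC5 (41397326 to 41397645, percentile 93.9) and in HNRNPUL1 (41298325 to 41298649, percentile 91.5). For MTA1 they were in EXOSC5 (41397342 to 41397662, percentile 98.7), over B9D2 and TMEM91 (41363803 to 41364312, percentile 90.4) and in HNRNPUL1 (41299775 to 41299976, percentile 74.7). The MTA1 peak under the RUNX2 peak in CCDC97 had percentile 8.74, so the sites that ranked highest in one list did not all do so in the other. TGFB1 was the nearest protein-coding gene for only 4 of the 17 RUNX2 and 3 of the 11 MTA1 peaks.

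TGFB2, a ligand with its own developmental roles, had 16 RUNX2 and 10 MTA1 peaks, and was the nearest protein-coding gene for 15 and 10 of them. Its start carried weak pairs. The RUNX2 peaks there had percentiles of 49.9 and 64.2, and the MTA1 peaks 35.9 and 30.3. The strongest RUNX2 peak of all 10 genes stood 32.1 kb inside TGFB2, at chromosome 1, 218377123 to 218377796, with a score of 60.6 and percentile 99.4. The MTA1 peak under it, 218377221 to 218377655, had a score of 11.7 and percentile 71.1. MTA1 was highest elsewhere, downstream at 218480174 to 218480517 (percentile 94.3), where the RUNX2 peak had percentile 78.2. The next RUNX2 peaks in rank were also downstream, at 218489140 to 218489367 (percentile 85.6) and 218460042 to 218460245 (percentile 83.5), the latter over an MTA1 peak of percentile 77.0 at 218460037 to 218460203.

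Of the receptors, TGFBR2, which binds the ligand, had the highest-ranked MTA1 start peak of the 10 genes, together with a RUNX2 peak of similar rank. The RUNX2 peak, chromosome 3, 30606333 to 30606655, had a score of 31.0 and percentile 94.4, and the MTA1 peak, 30606328 to 30606705, had a score of 33.7 and percentile 96.6. Both covered all 250 bases before the second start. This stretch held none of the 4 motifs, and the peaks also touched LOC105377015, a neighbouring gene. A further pair lay 53.2 kb inside the gene, at 30659330 to 30659726 (RUNX2, percentile 85.7) and 30659358 to 30659722 (MTA1, percentile 75.3). RUNX2 alone lay upstream at 30578607 to 30578814, with percentile 84.4. The next MTA1 peak in rank, 30681961 to 30682107, was inside the gene, with percentile 56.0 beside 68.3 for RUNX2.

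TGFBR1, the receptor kinase that phosphorylates SMADs, had 10 RUNX2 and 2 MTA1 peaks in its window. The gene itself was touched by 3 and 2 of them. Only 1 of the 10 RUNX2 peaks overlapped an MTA1 peak, beside 45.4% of the whole RUNX2 list. Its 8 annotated starts are spread over 2.17 kb, and the fifth and the sixth of them lay under a pair of peaks at chromosome 9, 99104652 to 99105157 (RUNX2, percentile 78.5) and 99104693 to 99105133 (MTA1, percentile 76.6). The near edge of that RUNX2 peak was 1005 bp from the outermost start, just past the limit of 1 kb. A RUNX2 peak of percentile 64.0 on the seventh start had no MTA1 partner. All 6 RUNX2 peaks in the upstream flank, up to percentile 92.1, were nearer to COL15A1, a collagen gene, and none of them overlapped an MTA1 peak. The highest were at 99057926 to 99058310 (percentile 92.1) and 99071977 to 99072161 (percentile 80.8). The only other MTA1 peak, 99149933 to 99150048, was inside TGFBR1 without a RUNX2 partner and had percentile 30.5.

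SMAD2 and SMAD3 are the SMADs that the receptors phosphorylate, and they differed in how many peaks they held. SMAD2 had 7 RUNX2 and 2 MTA1 peaks over a span of 121.9 kb. Both MTA1 peaks overlapped a RUNX2 peak, beside 65.5% of the whole MTA1 list. At the start, MTA1 had percentile 86.9 (47930942 to 47931371) and RUNX2 percentile 75.0 (47930822 to 47931463). The other pair was 48.8 kb inside the gene, where RUNX2 reached percentile 96.8 (chromosome 18, 47881812 to 47882323, score 38.8) and MTA1 percentile 75.4 (47881873 to 47882028). RUNX2 peaks without MTA1 stood on the second start (percentile 63.5) and 1024 bp upstream of the outermost one (47931896 to 47932025, percentile 71.9).

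SMAD3, of similar span at 129.6 kb, had 23 RUNX2 and 17 MTA1 peaks, with 15 and 12 of them inside the gene. Of the 23 RUNX2 peaks, 15 overlapped an MTA1 peak, beside 45.4% of the whole RUNX2 list. The RUNX2 percentile was the higher one in 14 of these 15 pairs, beside 56.8% of the pairs of the whole list. The 3 highest RUNX2 peaks were all inside the gene. They lay at chromosome 15, 67105348 to 67105811 (score 53.8, percentile 98.9), 67178498 to 67178910 (score 52.0, percentile 98.8) and 67091223 to 67091558 (score 50.9, percentile 98.6). Their MTA1 partners had percentiles of 89.8, 87.9 and 27.2, so the last site was near the top of the RUNX2 list and in the lower part of the MTA1 list. The 3 highest MTA1 peaks were at 67105410 to 67105789 (percentile 89.8), 67044033 to 67044552 (percentile 88.2) and 67178556 to 67178894 (percentile 87.9). The middle one lay upstream of SMAD3 in the divergent transcript SMAD3-DT and was the only MTA1 peak of SMAD3 that ranked above its RUNX2 partner, which had percentile 86.9.

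The outermost SMAD3 start ranked lower than these, with a RUNX2 peak of percentile 76.2 and an MTA1 peak of percentile 51.5. At the second start, whose sequence is printed above, the RUNX2 peak at 67098435 to 67098713 had percentile 89.1 and the MTA1 peak within it, 67098499 to 67098614, had percentile 14.9. At the third start the values were 87.5 and 76.3, and a RUNX2 peak of percentile 95.8 without an MTA1 partner began 914 bp beyond it. Upstream of the gene, a pair at 67049592 to 67050113 (RUNX2, percentile 98.3) and 67049623 to 67050064 (MTA1, percentile 79.4) stood 15.7 kb from the start. The fourth and the fifth starts had no peak of either protein within 1 kb.

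SMAD4, the partner shared by all receptor-activated SMADs, had the fewest peaks, 4 of RUNX2 and 2 of MTA1. In the pair at its start MTA1 ranked above RUNX2. RUNX2 was at percentile 29.0 (chromosome 18, 51030061 to 51030277, score 5.18) and MTA1 at percentile 81.9 (51030063 to 51030425, score 16.1). The highest RUNX2 peak near SMAD4, 16.7 kb upstream at 51013466 to 51013611, had percentile 48.6. The other pair, 40.5 kb inside the gene, was weak in both, at percentiles of 29.3 (RUNX2, 51070678 to 51070848) and 24.4 (MTA1, 51070678 to 51070793).

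The inhibitory SMADs had their highest RUNX2 peaks away from the outermost start, as did all the other genes described except TGFBR2 and SKIL. At SMAD6, which acts mainly on BMP signalling, the start itself carried an MTA1 peak, chromosome 15, 66702117 to 66702349 (percentile 51.9), and no RUNX2 peak. The nearest RUNX2 peak, 66701183 to 66701294, lay 942 bp upstream at its near edge, with percentile 63.9, and overlapped an MTA1 peak of percentile 42.3. The 10 RUNX2 peaks inside SMAD6 had percentiles of at most 66.7, the value at 66774492 to 66774612, and the highest MTA1 peak inside, 66730486 to 66730609, had percentile 52.2. The strongest pair was 20.4 kb past the end of the gene, at 66803229 to 66803492 (RUNX2, score 32.6, percentile 94.95) and 66803260 to 66803512 (MTA1, score 16.4, percentile 82.5).

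SMAD7, which TGF-beta itself induces as negative feedback, had 17 RUNX2 and 11 MTA1 peaks. Neither protein had a peak within 1 kb of its first or second start. The closest pair upstream began 1698 bp (RUNX2) and 1727 bp (MTA1) from the outermost start, with percentiles of 74.5 for RUNX2 (48952663 to 48952895) and 74.2 for MTA1 (48952692 to 48952846). The strongest RUNX2 peak, chromosome 18, 48942582 to 48942933 (score 50.4, percentile 98.6), lay on the third start, 8.16 kb inside the gene, over an MTA1 peak at 48942682 to 48942839 (score 9.72, percentile 63.0). Downstream of the gene, a RUNX2 peak of percentile 97.8 at 48896706 to 48897163 overlapped an MTA1 peak of percentile 87.6 at 48896782 to 48897066. In the upstream flank a RUNX2 peak at 48997856 to 48998605 (percentile 88.0) spanned a pair of MTA1 peaks of percentiles 71.1 and 92.6 (48998187 to 48998472 for the higher), nearer to DYM than to SMAD7.

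SKIL, whose product SnoN binds SMADs and holds their targets down, had its binding at the start. A RUNX2 peak 997 bp wide, chromosome 3, 170356781 to 170357777, had a score of 34.8 and percentile 95.7. It spanned 3 MTA1 peaks of percentiles 86.4, 48.5 and 92.0, the first at 170356831 to 170357196 and the last at 170357569 to 170357738. All 4 MTA1 peaks near SKIL overlapped a RUNX2 peak, 3 of them this same one, beside 65.5% of the whole MTA1 list. Apart from the start, no peak of either library near SKIL exceeded percentile 63.6. That value belonged to a RUNX2 peak in CLDN11 (170429224 to 170429359), followed by RUNX2 at 170346907 to 170347023 (percentile 61.3) and MTA1 at 170310258 to 170310404 (percentile 56.0), nearest to PRKCI.

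The motifs in the bases before the starts gave no more than a description. The RUNX core TGTGGT or its variant TGCGGT was found before 4 of the 25 starts (16%), at SMAD3, SMAD4, SMAD7 and TGFBR1, against 16.3% of 35116 promoters. Among promoters touched by a RUNX2 peak 9.03% held TGTGGT and 10.1% TGCGGT, and among the others 11.8% and 4.15%. The MTA1 list gave the same order, so it was not particular to RUNX2. With an MTA1 peak 7.48% held TGTGGT and 9.03% TGCGGT, and without one 12.5% and 4.44%. The second SMAD3 start held TGTGGT in both orientations, beginning 221 and 84 bases before the start, and both lay within the RUNX2 peak. The SMAD4 start held a single copy, beginning 18 bases before it, within peaks of both proteins. TGCGGT began 102 bases before the seventh TGFBR1 start, within a RUNX2 peak and no MTA1 peak. It also began 190 bases before the second SMAD7 start, where neither protein had a peak. The SMAD element CAGAC occurred before 10 of the 25 starts (40%), against 38.0% of all promoters, and 2 copies stood before the outermost SMAD7 start, where neither protein had a peak. The AP-1 site occurred before the third SMAD3 start only, and before 6.57% of all promoters. Neither RUNX motif was found before the third SMAD7 start or before the SKIL start.

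The wider pathway was examined in a list of 57 other genes of TGF-beta, activin and BMP signalling, given by role. A RUNX2 peak lay within 1 kb of a start of 34 (59.6%) and an MTA1 peak of 37 (64.9%), against 49.8% and 51.2% of protein-coding genes. Both were present at 32 genes (56.1%), against 44.3%, and neither at 18. For 10 of the 57 genes the table gave no start, and either end of the gene was used, as for all protein-coding genes without one. The strongest start peaks had a median percentile of 66.8 for RUNX2 and 71.7 for MTA1, lower than the 71.5 and 75.4 over all protein-coding genes.

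By role, SMAD cofactors had start peaks most often, and genes that store or release the ligands least often. The roles hold only 3 to 11 genes each, so their order is a description. Of all protein-coding genes, 44.3% had both proteins at a start. Both proteins were at 9 of 10 cofactor genes, led by the acetyltransferase gene EP300 with percentiles of 96.6 for RUNX2 and 96.8 for MTA1. Of the 11 target genes, 8 had both. The highest of these was BHLHE40, a transcriptional repressor, with percentiles of 93.7 and 92.8. Of the 10 receptors, 6 had both, with the highest RUNX2 peak at BMPR2 (percentile 98.9) and the highest MTA1 peak at ACVR1B (percentile 86.1).

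Of the 8 antagonists and feedback genes, 4 had both, near the 44.3% of all protein-coding genes. Among them BAMBI, a pseudoreceptor, had the highest peaks (percentiles 79.7 and 72.8). Of the 3 other SMAD genes, 2 had both, with the highest at SMAD5 (percentiles 63.6 and 65.0). Only 2 of the 8 other ligands had both, TGFB3 with the highest RUNX2 peak (percentile 48.2) and BMP2, for which either end was used, with the highest MTA1 peak (percentile 72.8). Of the 7 storage genes only LTBP1, which tethers latent TGF-beta to the matrix, had start peaks, with percentiles of 99.2 for RUNX2 and 80.6 for MTA1. All 57 genes had a RUNX2 peak inside or within 50 kb, and 55 an MTA1 peak, the exceptions being INHBA and SMAD9. This was common, since 90.8% of all protein-coding genes had such a RUNX2 peak and 86.6% an MTA1 peak.

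**Figure D4:**
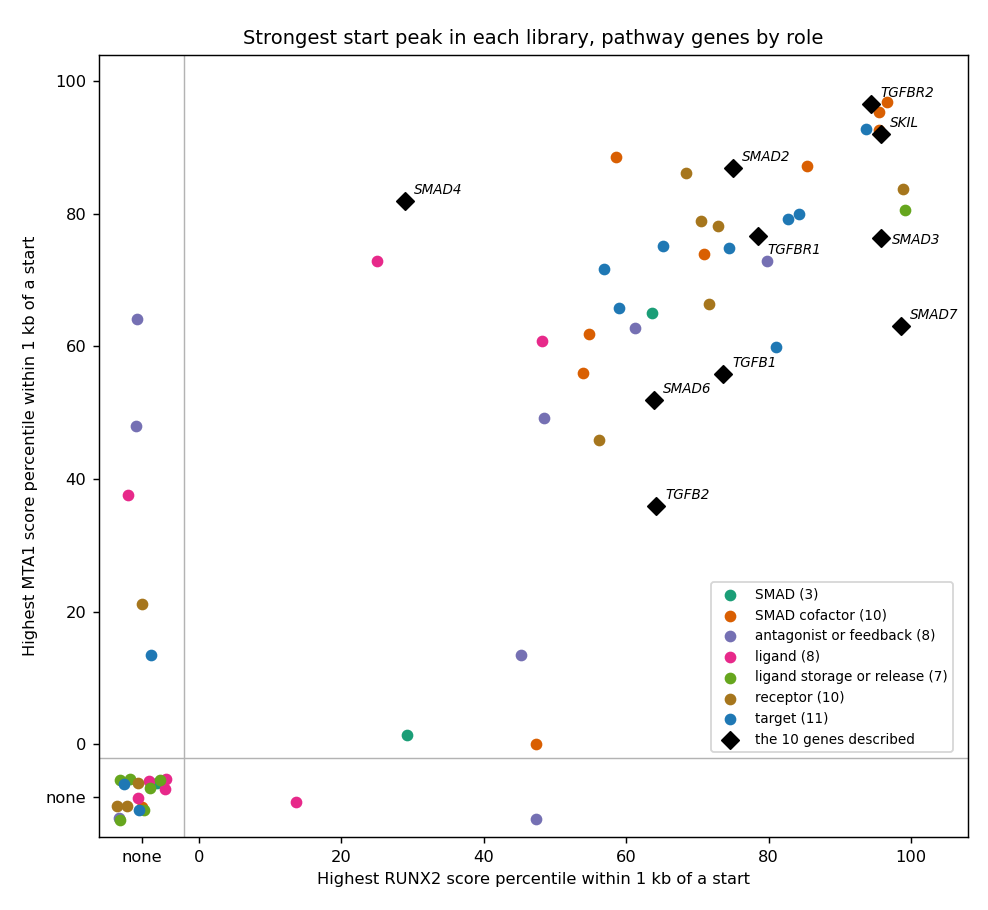
Each point is a gene, with the percentile of its highest RUNX2 peak within 1 kb of a start on the horizontal axis and that of its highest MTA1 peak on the vertical axis. Points beyond the grey lines, at "none", have no such peak and are spread only for legibility. Colours are roles of the 57 genes, with their number, and black diamonds are the 10 genes described, among which SMAD4 stands low for RUNX2 (29.0) and high for MTA1 (81.9).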

How the data were processed

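Libraries were made by CUT&Tag from MDA-MB-231 cells, 1 per antibody. The labels and the study's methods name different antibody suppliers, and the labels describe adaptor ligation and gel selection, which CUT&Tag does not usually use. The submitters' processing notes name CASAVA 1.4, Bowtie 0.12.8, MACS, MACS2 and hg19, without their roles. The peak threshold and any control are not given in the sources used here. The authors deposited 1 peak list per library with position and score. What the score measures is not given in the sources used here, so it served only as a rank within its list. Depth is unknown, and a missing peak can be a weak signal.

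The positions were checked against RefSeq starts of GRCh38.p14: a start lay within 1 kb for 17.7% of the RUNX2 list and 24.7% of the MTA1 list. After moves of 10 kb to 1 Mb in either direction the share was at most 3.53% and 3.80%, lower on 22 of 22 chromosomes tested. GRCh38 was therefore used. Peaks on chromosomes 1 to 22, X and Y were kept, and positions are 1-based. A peak belonged to a gene when it overlapped the gene or 50 kb on either side. Starts came from the promoter table, where 15843 protein-coding genes have one, and either end was used for the other 4194. Overlap required 1 bp. Intervals of shares are exact (Clopper-Pearson), and those of median percentiles are from order statistics. With 1 library per antibody, no p-value was computed. Simulated intervals were used to check the overlap code.

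The genes, the list of 57 and the tests were chosen with earlier results of these data known. Named were the 10 genes with the 3 highest peaks of each library, the nearest genes of peaks described, and in each role of the wider list the gene with the highest start peak of each library. INHBA and SMAD9 were named after their values were seen. The motifs and printed sequences were chosen after the peaks were seen. Python 3.11.15 with numpy 2.4.6, pandas 2.3.3 and scipy 1.17.1 was used.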

Additional observations from a re-analysis of the deposited data

How the results depend on the processing

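No paired analysis was possible because each antibody has 1 library, and no replicate could be left out. Counting only the genes themselves left 53 RUNX2 and 34 MTA1 peaks, and 10 kb flanks left 73 RUNX2 peaks. Peaks at or above the median score left 79 and 44, and the 10000 highest-scoring peaks left 29 and 18. Fewer peaks follow from these settings by construction. Requiring 50% of each peak to be shared gave 35.0% of RUNX2 and 59.7% of MTA1 peaks. The whole-list shares were not computed under this rule. These values therefore cannot be set against the 45.4% and 65.5% found with 1 bp. With the 10000 highest-scoring peaks, 4 of the 10 genes had a RUNX2 peak within 1 kb of a start and 5 an MTA1 peak. The shares of protein-coding genes were 14.4% and 24.8%. Of the 57 other genes 8 and 13 had one, slightly below those shares, so their excess over all protein-coding genes was not seen at this setting.

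The other totals stayed within 1.5-fold, and the other shares and the median percentiles within their intervals, with flanks of 100 kb, merging within 500 bp, nearest genes only, centres within 200 bp and start windows of 500 bp or 3 kb. The outermost start and the values without SMAD3 were added after seeing the data. The counts at starts, the overlap shares and the median percentiles also stayed within them. No interval was computed for the share of RUNX2 peaks at or above percentile 95, which was 10.6% with SMAD3 and 6% (6 of 100) without it. Within 500 bp of a start, SMAD6 had no RUNX2 peak. Of 20 counts for single genes, those that moved by more than 1.5-fold were 14 with the gene alone, 8 with 10 kb flanks, 7 with 100 kb flanks, 4 with nearest genes only, 1 with merging, 12 at the median score and 20 with the 10000 highest peaks. The number of reads is unknown, so its effect on peak calls was not tested, and copy number of these loci was not analysed here.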

Other observations

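By position, 53 of the 123 RUNX2 peaks lay inside the 10 genes, 41 in the upstream flank and 29 in the downstream flank, with median percentiles of 62.3, 61.3 and 65.2. The MTA1 peaks divided into 34 inside, 24 upstream and 14 downstream, with medians of 52.7, 56.6 and 61.3. MTA1 overlapped RUNX2 in 27, 20 and 12 of these (79.4%, 83.3% and 85.7%), beside 65.5% of the whole MTA1 list. RUNX2 overlapped MTA1 in 28, 17 and 12 of its peaks (52.8%, 41.5% and 41.4%), beside 45.4% of the whole RUNX2 list.

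Many peaks had the smallest width of their list. Of the RUNX2 peaks at the 10 genes 26 (21.1%) were 99 bp wide, against 31.7% of the list, and of the MTA1 peaks 13 (18.1%) were 116 bp wide, against 26.0%. None of the 17 RUNX2 peaks within 1 kb of a start had that width, and 2 of the 18 MTA1 peaks there did, both at SMAD3.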
